A study of Mus musculus with 6 samples.

Results

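Olfactory receptor genes form the largest gene family of the mouse and lie in arrays along many chromosomes. The data described here are aligned reads in 3 such arrays on build mm9: chr2:85100001-89900000, chr9:37600001-39900000 and chr7:109600001-111900000. The arrays, called clusters in the plots, were taken by position as windows of 10 kb, 480, 230 and 230 in number. Together these are 940 of the 264198 windows of chromosomes 1 to 19, X and Y, or 9.4 Mb. Each array was set against the 5 Mb on either side of it (its flanks) and against the rest of its chromosome. None of the 940 windows was lost to the filter used for levels against the flanks. A further filter on low levels, used in 1 count of H2A.B against IgG ChIP, kept 912. Of the 3000 flank windows 2995 were used, because 4 held no read in any library and 1 was a pile of repeated reads.

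All libraries were made from C57Bl/6 mouse ES cells (embryonic stem cells), grown in leukaemia inhibitory factor (LIF) and no feeder layer. There was 1 library of chromatin immunoprecipitation (ChIP) with a rabbit antibody made by the submitters against the histone variant H2A.B (mH2ABbd) and 1 ChIP library with rabbit IgG, an antibody without a target in these cells that gives the background. Methylated DNA immunoprecipitation (MeDIP) with mouse antibody clone 33D3 against 5-methylcytosine (5mC) gave 3 libraries, and mouse IgG gave 1. Whether separate cultures lie behind the 5mC replicates is not stated in the labels, and p-values cover no more than the variation among these libraries, possibly all technical. No expression was measured, so the cells were not checked against ES cell markers.

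An olfactory receptor gene encodes a receptor for odorants, and each olfactory neuron expresses a single allele of a single such gene. The arrays are known to be rich in A and T and in repeats and poor in CpG islands. The array on chromosome 7 surrounds the beta-globin genes. H2A.B belongs to the short H2A variants, and its nucleosomes wrap less DNA, and it has been linked with active chromatin and with the testis. In mouse cells 5mC lies mostly on the C of a CG dinucleotide, and the MeDIP antibody binds stretches of DNA with several of them.

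The DNA of these arrays holds few CG dinucleotides near annotated gene starts. RefSeq promoters of build GRCm38.p6 (250 bases before to 50 after the gene start, 300 bases each) were searched for the letters CG, which read the same on both strands. Coordinates were not carried over to mm9, and genes were assigned to an array from gene order alone, so a gene near an end of a set may lie outside the windows counted. On chromosome 2 the genes taken were the olfactory receptor genes on either side of Pramel6 and Pramel7, with promoters for 183 of 216 coding genes. The chromosome 9 genes were those around Vwa5a and AW551984 (78 of 94), and the chromosome 7 genes those on either side of the beta-globin genes (37 of 41). The median promoter held 1 CG in each of these sets, against 8 in the 31904 promoters of other genes. Some annotated starts in the sets may be those of the coding sequence (see the sequences below), which limits this comparison. No CG was found in 35.3% of the promoters on chromosome 2, 30.4% on chromosome 9 and 27.0% on chromosome 7, against 4.60% of the promoters of other genes. The median GC content was 32.0%, 35.7% and 38.0%, against 53.3% in the promoters of other genes. Over all 947 promoters of olfactory receptor genes the median was 1 CG, 33.4% held none and the median GC content was 35.0%. Few CG was thus not particular to these 3 arrays within the gene family.

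The promoters with the fewest and the most CG of each array are shown, 5′ to 3′ on the strand of the gene, to give the range of the substrate of 5mC. Capitals mark each CG. The first pair belongs to chromosome 2, the next to chromosome 9 and the last to chromosome 7, with 0 and 7, 0 and 8, and 0 and 3 CG.
Olfr32: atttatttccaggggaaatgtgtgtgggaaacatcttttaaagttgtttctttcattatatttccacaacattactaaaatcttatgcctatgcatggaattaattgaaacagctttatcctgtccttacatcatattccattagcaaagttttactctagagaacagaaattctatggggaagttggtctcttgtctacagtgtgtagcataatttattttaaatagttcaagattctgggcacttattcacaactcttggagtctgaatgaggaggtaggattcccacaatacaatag
Olfr1212: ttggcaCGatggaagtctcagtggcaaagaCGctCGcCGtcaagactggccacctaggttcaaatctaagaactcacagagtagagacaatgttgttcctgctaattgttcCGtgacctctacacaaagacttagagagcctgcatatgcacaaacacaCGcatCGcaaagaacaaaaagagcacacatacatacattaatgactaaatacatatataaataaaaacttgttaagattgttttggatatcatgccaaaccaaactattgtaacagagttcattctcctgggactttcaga
Olfr26: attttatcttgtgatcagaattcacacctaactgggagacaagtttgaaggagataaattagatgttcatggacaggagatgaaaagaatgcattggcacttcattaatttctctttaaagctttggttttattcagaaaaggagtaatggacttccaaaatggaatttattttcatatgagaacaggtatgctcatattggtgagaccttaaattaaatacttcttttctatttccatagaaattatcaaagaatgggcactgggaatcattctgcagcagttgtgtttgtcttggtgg
Olfr976: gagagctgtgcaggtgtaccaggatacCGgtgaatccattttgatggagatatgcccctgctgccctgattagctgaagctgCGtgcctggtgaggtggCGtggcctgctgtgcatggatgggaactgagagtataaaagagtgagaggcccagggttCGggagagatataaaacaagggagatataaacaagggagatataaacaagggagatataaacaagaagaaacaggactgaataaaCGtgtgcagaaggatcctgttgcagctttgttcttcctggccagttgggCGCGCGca
Olfr243: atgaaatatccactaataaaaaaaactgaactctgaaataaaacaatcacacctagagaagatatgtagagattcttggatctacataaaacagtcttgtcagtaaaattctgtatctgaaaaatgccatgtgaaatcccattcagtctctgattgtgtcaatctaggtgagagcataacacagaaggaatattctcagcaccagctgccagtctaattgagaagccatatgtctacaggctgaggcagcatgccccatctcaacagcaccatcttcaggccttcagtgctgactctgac
Olfr66: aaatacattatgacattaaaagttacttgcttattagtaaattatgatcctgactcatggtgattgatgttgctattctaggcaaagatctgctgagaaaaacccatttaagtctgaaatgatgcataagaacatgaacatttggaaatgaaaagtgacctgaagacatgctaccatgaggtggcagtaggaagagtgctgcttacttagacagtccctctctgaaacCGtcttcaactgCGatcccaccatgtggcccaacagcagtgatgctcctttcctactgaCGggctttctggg
These are genes that code for odorant receptors. No read count was assigned to a single promoter.

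The lists held 9266471 reads of H2A.B, 811727 of IgG ChIP, 1574706 to 4178268 used reads of 5mC and 201263 of IgG MeDIP. Reads were counted once per position and strand, which left 8056333 distinct reads in the H2A.B library and 549958 in IgG ChIP. The 5mC libraries kept 819043 to 1917182 distinct reads and IgG MeDIP 126666. Every read of H2A.B and of 5mC replicate 1 carried the name of lane 3 of a flow cell and was 42 bp long. All other reads were 50 bp long and came from a second flow cell, 5mC replicate 2 and IgG MeDIP from lane 1 and 5mC replicate 3 and IgG ChIP from lane 2. Between H2A.B and IgG ChIP, the effects of antibody, lane and read length cannot be told apart. All intervals below are exact 95% intervals that cover counting error only. PCR copies without molecular identifiers are not independent molecules.

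All 6 libraries, both IgG controls included, held fewer reads per window in the 3 arrays than in their flanks. H2A.B in the chromosome 2 array held 18 distinct reads per 10 kb window against 32.8 in the flanks, a ratio of 0.548 (0.535 to 0.561). On chromosome 9 it held 20.4 against 35.7, a ratio of 0.569 (0.552 to 0.587), and on chromosome 7 24.5 against 36.6, a ratio of 0.670 (0.651 to 0.689). The intervals of the first 2 arrays overlap, and that of chromosome 7 lies above both. Against the rest of the chromosome the H2A.B ratios were 0.555, 0.591 and 0.727, near those against the flanks.

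IgG ChIP was reduced less. It held 1.49 distinct reads per window in the chromosome 2 array against 1.97 in the flanks, a ratio of 0.757 (0.694 to 0.825). The ratio was 0.853 (0.765 to 0.948) on chromosome 9 and 0.846 (0.758 to 0.941) on chromosome 7. Every interval lies below 1 and above the H2A.B interval of the same array. With medians of 10 kb windows in place of means the order turned on chromosomes 2 and 9, where IgG ChIP was at 0.5 in both and H2A.B at 0.567 and 0.571, since the IgG ChIP medians are whole numbers of 1 or 2 reads. These ratios rest on 717, 412 and 406 IgG ChIP reads, against 8638, 4682 and 5641 of H2A.B.

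The 5mC libraries were low in the arrays as well, and they differed among themselves. On chromosome 2 the ratio to the flanks was 0.445 in replicate 1, 0.538 in replicate 2 and 0.805 in replicate 3, a mean of 0.596 ± 0.187 (SD, n = 3). On chromosome 9 the replicates stood at 0.540, 0.488 and 0.721, a mean of 0.583 ± 0.122 (SD, n = 3). On chromosome 7 they stood at 0.609, 0.622 and 0.886, a mean of 0.706 ± 0.156 (SD, n = 3). Replicate 3 was the highest in all 3 arrays and replicates 1 and 2 changed order. Between arrays, the 5mC means lay closer together than the replicates did within an array. IgG MeDIP, the background of this assay, stood at 0.416 (0.319 to 0.535), 0.444 (0.318 to 0.607) and 0.661 (0.492 to 0.873), on 74, 44 and 58 reads.

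**Figure D1:**
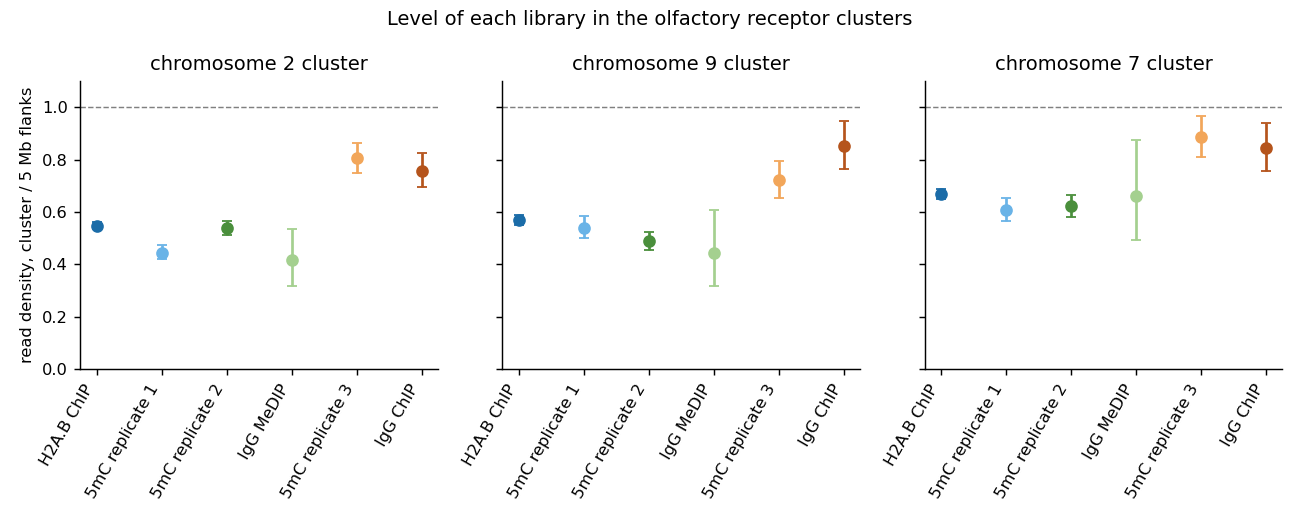
Read density in each olfactory receptor array divided by that in its 5 Mb flanks, for each library (points), with exact 95% counting intervals (bars) and one hue for libraries of the same lane. All 18 points lie below the dashed line at 1, and 5mC replicate 3 and IgG ChIP, which share a lane, lie highest in each panel.

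Over all 3 arrays IgG ChIP held the largest share of its reads and IgG MeDIP the smallest. The arrays make up 0.367% of the windows used and held 0.285% of the distinct reads of IgG ChIP, 0.279% of 5mC replicate 3 and 0.235% of H2A.B. 5mC replicates 1 and 2 had 0.201% and 0.193% of their reads there, and IgG MeDIP 0.142%. IgG ChIP and 5mC replicate 3, next to each other in this order, were 0.775 and 0.760 of the level of the genome, and 5mC replicates 1 and 2 were 0.547 and 0.526.

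The next comparison asked whether H2A.B differed from its IgG control in the arrays. The array-to-flank ratio of H2A.B was 0.724 (0.662 to 0.792) times that of IgG ChIP on chromosome 2, 0.668 (0.598 to 0.747) times on chromosome 9 and 0.792 (0.709 to 0.886) times on chromosome 7. The intervals lie below 1, and there is no replicate check. Against 5mC replicate 1, the library of the same lane and read length, H2A.B stood instead at 1.23 (1.15 to 1.31), 1.05 (0.968 to 1.15) and 1.1 (1.02 to 1.19). The direction of the H2A.B difference therefore turned with the library it was divided by on chromosomes 2 and 7, while on chromosome 9 the second interval held 1. 5mC replicate 1 is not a background control and was itself low in the arrays, at 0.445, 0.540 and 0.609 of the flanks. With medians of 10 kb windows H2A.B was 1.13, 1.14 and 0.657 times IgG ChIP. The part of lane and read length in the H2A.B difference was not tested.

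In the median over pairs, libraries of the same lane gave closer values than libraries of different lanes. The widest gaps all involved IgG ChIP or 5mC replicate 3, which share a lane. Over 9 comparisons of lane mates (3 pairs in 3 arrays) the median absolute log2 difference of array-to-flank ratios was 0.14, with a range of 0.07 to 0.37. Over the 36 comparisons across lanes it was 0.43, with a range of 0.02 to 0.95. Comparisons across lanes without IgG ChIP and 5mC replicate 3 ran from 0.02 to 0.40 only, much as the lane mates did. Both ends were H2A.B with IgG MeDIP, on chromosomes 7 and 2. What part lane has in this pattern was not tested. The 95% interval left out 1 in 4 of the 9 and in 26 of the 36. The widest gap, 0.95, was between 5mC replicate 3 and IgG MeDIP on chromosome 2, and the IgG libraries of the 2 assays differed by 0.94 on chromosome 9. IgG ChIP stood at 1.82 (1.39 to 2.40) times IgG MeDIP on chromosome 2 and at 1.92 (1.38 to 2.73) times on chromosome 9. In these arrays the controls differed by more than H2A.B and IgG ChIP did, while on chromosome 7 the interval of their ratio, 1.28 (0.947 to 1.75), held 1. The 15 pairs of libraries share members and are given as a description without a test.

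5mC was set against IgG MeDIP in the same way. On chromosome 2 the ratio of array-to-flank ratios was 1.07, 1.3 and 1.94 in replicates 1, 2 and 3, a mean of 1.43 ± 0.449 (SD, n = 3). On chromosome 9 it was 1.22, 1.1 and 1.62, a mean of 1.31 ± 0.275 (SD, n = 3). On chromosome 7 it was 0.921, 0.942 and 1.34, a mean of 1.07 ± 0.236 (SD, n = 3). All 3 replicates lay above 1 on chromosomes 2 and 9, and 1 of 3 did on chromosome 7. An exact two-sided permutation test over the 4 MeDIP libraries gave p = 0.5, 0.5 and 1 for chromosomes 2, 9 and 7, where the smallest p that 3 libraries against 1 allow is 0.25. Replicate 2, the lane mate of IgG MeDIP, stood at 1.3 (1.00 to 1.70) times it on chromosome 2, an interval that just leaves out 1. It stood at 1.1 (0.797 to 1.55) times on chromosome 9 and 0.942 (0.707 to 1.27) on chromosome 7, where the intervals hold 1.

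A fit over the whole genome gave no 5mC call in the arrays. In 1 Mb windows started at the array starts, limma (two-sided, Benjamini-Hochberg threshold 0.05, libraries thinned to the depth of IgG MeDIP) called 0 of the 8 windows that lie wholly in an array. On simulated data it recovered 0% of windows lowered 0.5-fold, so its 0 lower calls carry no information, while voom recovered 88% of them. The simulated counts had counting noise only, while the 5mC replicates differed by more. The voom share therefore does not tell what voom would recover in these data. At an unadjusted p under 0.05 it called 1 higher and 0 lower, and limma's voom method at full depth called 0 and had 3 higher at that unadjusted level. Over all 2560 windows limma called 5 higher, or 0.195%, and 0 lower, with 166 higher and 11 lower at the unadjusted level. The median log2 difference of 5mC from IgG MeDIP was 0.53 in the 8 array windows and 0.20 over all windows. Scaling to the median window moved these to 0.36 and 0.03, with 132 windows higher and 29 lower at the unadjusted level and 0 of the 8 among them. The window that came nearest lay at chromosome 2, 87100001 to 88100000, with 254, 239 and 335 distinct reads scaled to a library total of 1e6 (CPM) in 5mC replicates 1, 2 and 3 and 153 CPM in IgG MeDIP. Its log2 difference was 0.92, with a limma adjusted p of 0.693, and 5mC was higher in 3 of 3 replicates. At chromosome 7, 110600001 to 111600000, 5mC was at 192, 221 and 338 CPM and IgG MeDIP at 250 CPM, the only one of the 8 windows with a log2 difference below 0, at -0.13.

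In windows of 100 kb, H2A.B was compared with IgG ChIP by a rule of size, since neither had a replicate. Enriched windows had a CPM ratio of at least 1.5 with a lower bound above 1, and mirrored windows met the same rule with the libraries exchanged. Over the genome 9.67% of 25564 windows were enriched and 9.45% mirrored. In the arrays 1 of 94 windows was enriched (1.06%) and 12 were mirrored (12.8%), so that the mirrored share was near the background and the enriched share below it. Dividing each ratio by the median of its chromosome gave 1 enriched window and 21 mirrored (22.3%), against 8.11% and 7.87% of the genome. At a ratio of at least 2 there were 1 and 4, against 3.41% and 3.04% of the genome, and with no filter 1 and 12, against 9.71% and 9.51%. The mirrored windows were 5 of 48 on chromosome 2, 5 of 23 on chromosome 9 and 2 of 23 on chromosome 7. The median ratio was 0.855, 0.748 and 0.874 in the arrays and 1.11, 1.13 and 1.19 in their flanks. It lay below 1 in 36 of 48, 19 of 23 and 14 of 23 array windows, against 49.0% of the genome. Of the 10 kb windows that passed the filter on low levels 1 of 912 was enriched and 37 were mirrored (4.06%), where the genome had 0.607% and 2.67%.

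The enriched window was the first of the chromosome 7 array, at 109600001 to 109700000, which borders the left flank. It held 442 H2A.B and 9 IgG ChIP reads, a ratio of 3.29 (1.72 to 7.24), and 54.9 CPM of H2A.B against a median of 28.1 CPM over the array. The next highest lower bound on chromosome 7 was in the neighbouring window, 109700001 to 109800000, where 298 and 15 reads gave 1.33 (0.794 to 2.41). On chromosome 9 the highest were the last windows of the array, 39700001 to 39800000 and 39800001 to 39900000, each with a ratio of 1.56, and on chromosome 2 the last window, 89800001 to 89900000, at 1.64 (0.851 to 3.64). The highest lower bound thus lay in the first window on chromosome 7, the last on chromosome 2 and the next to last on chromosome 9, and the rule was met on chromosome 7 alone. The lowest upper bounds were at chromosome 2, 89600001 to 89700000, with 181 H2A.B and 31 IgG ChIP reads and a ratio of 0.391 (0.266 to 0.592), and at chromosome 9, 39400001 to 39500000, where 232 and 32 reads gave 0.485 (0.335 to 0.726). In both the IgG ChIP level, 57.5 and 59.3 CPM, was the highest of the array, while H2A.B, at 22.5 and 28.8 CPM, was above its array median of 21.7 and 23.8 CPM. The lowest on chromosome 7 was 110900001 to 111000000, where 201 and 25 reads gave 0.538 (0.354 to 0.852).

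**Figure D2:**
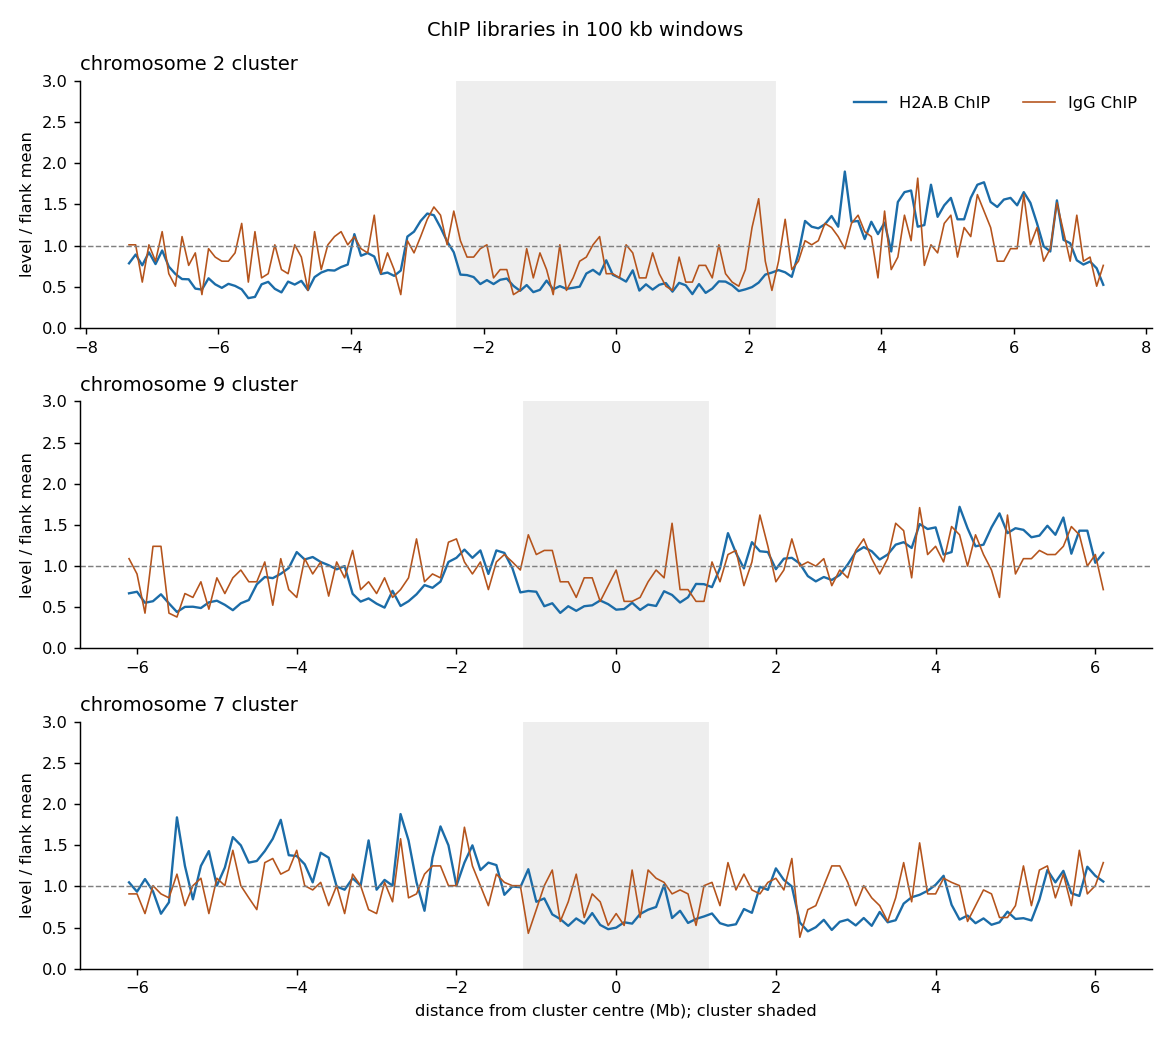
Reads of H2A.B (blue) and IgG ChIP (brown) in 100 kb windows across each array (shaded) and its flanks, divided by the mean of the flanks, against distance from the array centre in Mb. H2A.B is low throughout the chromosome 2 and 9 arrays, and on chromosome 7 it stays low past the right border.

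Seen along the chromosome, the H2A.B level changed at 5 of the 6 borders. In the 500 kb inside the border relative to the 500 kb outside it stood at 0.508 (0.470 to 0.548) on the left and 0.674 (0.620 to 0.733) on the right of the chromosome 2 array. On chromosome 9 it stood at 0.586 (0.542 to 0.633) and 0.647 (0.601 to 0.696), and at the left of chromosome 7 at 0.761 (0.711 to 0.814). At the right border of chromosome 7 there was no detectable step, at 1.03 (0.951 to 1.12). IgG ChIP had an interval below 1 at 1 border only, the left of chromosome 2, at 0.723 (0.549 to 0.95), on 94 and 130 reads. The 5mC intervals lay below 1 at 5 of 6 borders in replicates 1 and 2 and at 4 of 6 in replicate 3. The lowest values were at the left of chromosome 2, where replicate 1 was at 0.393 (0.320 to 0.481), replicate 2 at 0.395 (0.330 to 0.470) and replicate 3 at 0.560 (0.433 to 0.721). At the right of chromosome 9 replicate 1 was at 0.785 (0.646 to 0.951), and at the left of chromosome 7 replicate 3 was at 0.837 (0.653 to 1.07). At the right of chromosome 7 no replicate had a detectable step, at 0.948, 0.987 and 1.03. IgG MeDIP, the control of 5mC, also had intervals below 1. It was at 0.179 (0.0538 to 0.468) at the left of chromosome 2, on 5 reads inside and 28 outside. At the right of chromosome 9 it was at 0.212 (0.0792 to 0.488) and at the left of chromosome 7 at 0.310 (0.129 to 0.673). Its interval held 1 at the right of chromosome 2 and the left of chromosome 9. At the right of chromosome 7 it lay above 1, at 5.00 (1.41 to 26.9), on 15 and 3 reads.

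The flanks were not even, and parts of them were as low as the arrays. The chromosome 2 array stood at 0.745 of its left flank and 0.433 of its right flank in H2A.B, the chromosome 9 array at 0.734 and 0.466, and the chromosome 7 array at 0.544 and 0.874. The IgG ChIP values on chromosome 9 were 0.976 (0.867 to 1.1) and 0.757 (0.675 to 0.848), so that the left flank there did not differ detectably from the array. On chromosome 2, 13 of the 50 windows of 100 kb in the left flank were at or below the array median of 21.7 CPM of H2A.B, and 1 of 50 in the right flank. On chromosome 9 the counts were 8 of 49 and 0 of 50, and on chromosome 7 0 of 50 and 23 of 50. Over the genome 14.0%, 21.7% and 34.9% of windows were at or below the medians of the 3 arrays. A level as low as that of the arrays was therefore common outside them. No gene was placed in a window on mm9, so whether low flank windows hold further olfactory receptor genes was not looked at.

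Windows under the 10th percentile of the genome were frequent in the chromosome 2 array. H2A.B was under the genome's 10th percentile, 20.6 CPM, in 16 of its 48 windows (33.3%), where the genome had 9.64%. IgG ChIP was under its own 10th percentile in 11 (22.9%, genome 9.36%). For 5mC replicates 1, 2 and 3 the counts were 8, 12 and 7 of 48 (genome 9.75%, 9.44% and 8.96%), and for IgG MeDIP 15 (genome 8.52%). All 6 libraries were above their background there. On chromosome 9 it was 2 of 23 windows for H2A.B (8.70%), near the share of the genome, and 0 for IgG ChIP. For 5mC replicates 1, 2 and 3 the counts there were 3, 4 and 5 (13.0%, 17.4% and 21.7%), and for IgG MeDIP 4 (17.4%). Counts this small differ from the share of the genome by few windows, and no direction is read from them. On chromosome 7 H2A.B had 0 of 23 windows and IgG ChIP 17.4%, with 4.35%, 13.0% and 8.70% for the 5mC replicates and 13.0% for IgG MeDIP. At 23 windows an array, 1 window is 4.35%. An IgG MeDIP count of 0 has an upper limit (3 reads) of 24.2 CPM, as high as the median over the genome.

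**Figure D3:**
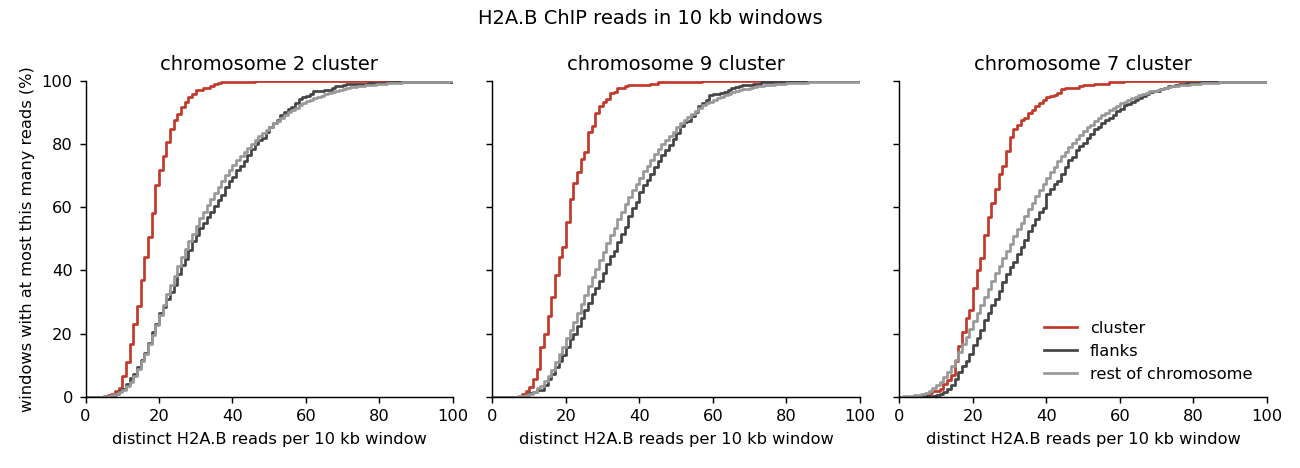
Share of 10 kb windows (vertical axis, percent) with at most the number of distinct H2A.B reads on the horizontal axis, in the array, its flanks and the rest of the chromosome. The array curves are shifted to lower counts and are steeper, with medians of 17, 20 and 23 reads.

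Within the arrays H2A.B varied less from window to window than in the flanks, though by more than counting noise. On chromosome 2 the 10 kb windows held 5 to 46 H2A.B reads, with quartiles of 14.0, 17.0 and 21.0. On chromosome 9 they held 8 to 57 and on chromosome 7 7 to 61, with medians of 20.0 and 23.0. Only 19 of 480, 5 of 230 and 27 of 230 windows reached the median of their flanks, which was 30.0, 35.0 and 35.0 reads. The variance over the windows was 1.88, 2.31 and 3.04 times the mean in the arrays and 7.64, 5.56 and 6.83 times in the flanks, where pure counting noise gives 1. This measure grows with the read level, which was higher in the flanks. The SD divided by the mean differed less, at 0.323, 0.337 and 0.352 in the arrays and 0.482, 0.395 and 0.432 in the flanks. No array window was without an H2A.B read, and the lower level was spread over most windows.

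Sharp local maxima of H2A.B were rare in the arrays. Maxima were 1 kb windows with at least 15 distinct reads and 4 times the mean of the 10 kb on each side. The chromosome 2 array had 0 in 4.8 Mb, while its flanks had 16, or 1.60 per Mb. The chromosome 9 and chromosome 7 arrays had 1 each, or 0.435 per Mb, against 1.20 and 0.900 per Mb in their flanks and 1.54 per Mb in the genome. Since a fixed minimum of reads is harder to reach where the level is low, these counts move with the level. The maximum on chromosome 9, at 37737001 to 37738000, held 35 H2A.B reads, 2 of 5mC replicate 1 and 0 in the other 4 libraries. That on chromosome 7, at 109862001 to 109863000, held 17 H2A.B reads and 0 in all 5 others.

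Among the 5mC libraries the spread over windows differed, and it is not compared with that of H2A.B because the measure grows with depth. The 10 kb windows of the chromosome 2 array held 0 to 38 reads of 5mC replicate 1, 0 to 20 of replicate 2 and 0 to 8 of replicate 3, with medians of 2, 3 and 2. The variance was 4.63, 2.16 and 1.1 times the mean. On chromosome 9 it was 5.53, 2.77 and 1.07 times and on chromosome 7 9.35, 3.36 and 1.38 times. Of the 5mC libraries replicate 3, the one with the fewest reads, was nearest to counting noise in all 3 arrays. Its values were close to those of both IgG libraries. IgG ChIP, its lane mate, had 1.14, 1.13 and 1.3, and IgG MeDIP, of another lane, 1.28, 0.949 and 1.31. Of the array windows 18.5%, 17.0% and 13.5% had no read of replicate 1, and 87.1%, 82.2% and 80.0% had none of IgG MeDIP.

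A few windows held many 5mC reads in replicates 1 and 2. They were picked after their values were seen, by the mean CPM of the 3 replicates, and are a description. The highest was chromosome 7, 110440001 to 110450000, with 65 reads of replicate 1, 33 of replicate 2, 4 of replicate 3 and 0 of IgG MeDIP. This was 17.8, 7.51 and 1.5 times the array mean of each replicate, while H2A.B, with 38 reads, was at 1.55 times. On chromosome 2, 86180001 to 86190000 held 25, 20 and 6 reads of replicates 1, 2 and 3, and 86680001 to 86690000 held 38, 9 and 3, both with 0 of IgG MeDIP. In the second of these 24 of the 38 reads of replicate 1 lay in 1 kb, at 86683001 to 86684000, with 6 of replicate 2 and 0 of replicate 3. On chromosome 9, 38700001 to 38710000 held 36, 10 and 0 reads, with 24 of replicate 1 at 38704001 to 38705000. Replicates 1 and 2 were both above their array mean in these windows, and replicate 3 was not in each of them. All 3 replicates had a part in the choice, so no agreement between them is read from these windows.

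A separate set of windows was chosen from replicate 1 alone and read in the libraries that had no part in the choice. In 9 of 480, 4 of 230 and 5 of 230 windows replicate 1 had at least 5 times its array mean. 5mC replicate 2 stood there at 2.99, 2.07 and 3.32 times its own array mean on chromosomes 2, 9 and 7, and replicate 3 at 1.66, 1.25 and 0.750 times. IgG ChIP stood at 1.71, 1.12 and 1.47 times, H2A.B at 1.55, 1.28 and 1.06 times, and IgG MeDIP at 2.88, 1.31 and 1.59 times, on 4, 1 and 2 reads. Replicate 2 was above IgG ChIP and H2A.B in all 3 arrays, and replicate 3 was within their range or below it. Against IgG MeDIP, the control of the assay, the number of reads was too small to compare.

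**Figure D4:**
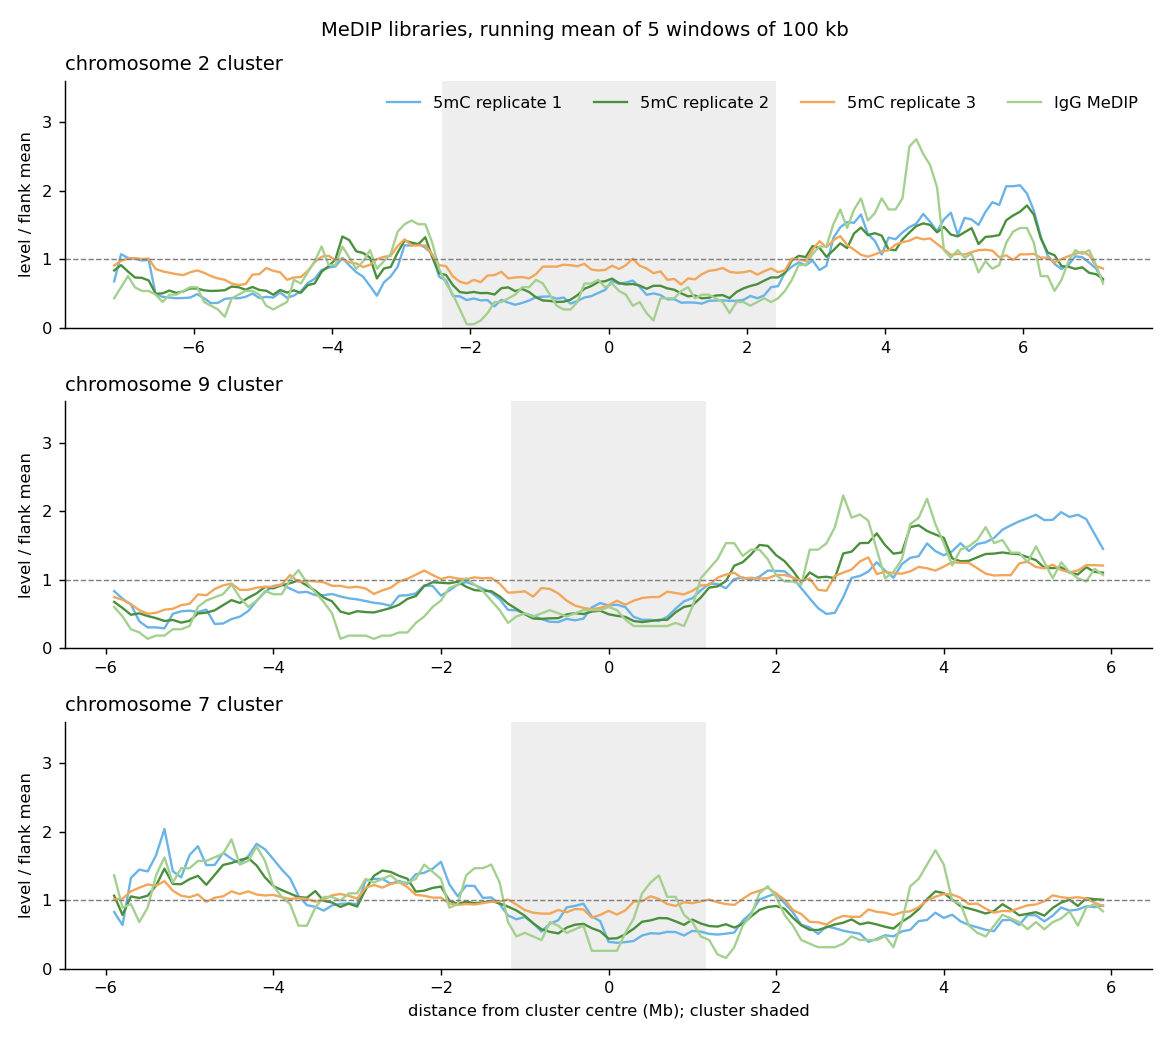
Reads of the 3 5mC replicates and IgG MeDIP across each array (shaded) and its flanks, as the running mean of 5 windows of 100 kb divided by the mean of the flanks, against distance from the array centre in Mb. 5mC replicates 1 and 2 and IgG MeDIP are low in the chromosome 2 and 9 arrays, where replicate 3 stays nearer to 1, and on chromosome 7 IgG MeDIP passes 1 in the right part of the array.

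Over the 10 kb windows of each array, the 2 with the highest and the 2 with the lowest mean CPM of the 6 libraries were also named by rule. The highest were chromosome 7, 110440001 to 110450000 (described above), with a mean of 13.2 CPM, and 111170001 to 111180000, with 10.0, chromosome 2, 87770001 to 87780000 and 88450001 to 88460000, with 9.94 and 7.88, and chromosome 9, 39700001 to 39710000 and 38700001 to 38710000, with 7.92 and 6.41. Since a single read of IgG MeDIP is worth more CPM than one of any other library, 3 and 4 such reads gave 24.2 and 32.2 CPM in the chromosome 2 windows and 3 gave 24.2 CPM in the second window on chromosome 7. The lowest were chromosome 2, 85640001 to 85650000 and 88960001 to 88970000, chromosome 9, 38270001 to 38280000 and 38470001 to 38480000, and chromosome 7, 110370001 to 110380000 and 110820001 to 110830000. They held 13, 12, 12, 17, 12 and 11 H2A.B reads and none of either IgG library. The lowest mean was 0.357 CPM, so the named windows span the range from single reads to the 5mC-rich window of chromosome 7.

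Rank correlations between libraries were lower in the array than in its flanks for 15 of 15 pairs on chromosome 2, 15 of 15 on chromosome 9 and 10 of 15 on chromosome 7. Over 48 windows of 100 kb in the chromosome 2 array Spearman's rho of H2A.B with 5mC replicates 1, 2 and 3 was 0.399, 0.306 and 0.195, against 0.830, 0.821 and 0.641 over 100 flank windows. Between 5mC replicates 1 and 2 it was 0.622 in the array and 0.806 in the flanks, and between H2A.B and IgG ChIP 0.401 and 0.518. Over the 23 windows of chromosome 9 replicates 1 and 2 were at 0.300 and replicates 2 and 3 at -0.374, and over those of chromosome 7 at 0.680 and 0.0907. An exception on chromosome 7 was H2A.B with 5mC replicate 2, at 0.787 in the array and 0.769 in the flanks. These values are descriptions across windows that share library and depth, the arrays hold fewer reads per window and a narrower range than the flanks, and no test was made.

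H2A.B reads of the arrays were seldom repeats of the same position, and 5mC and IgG ChIP reads more often. H2A.B had 1.03 reads per distinct position in all 3 arrays, and 5mC replicates 1 to 3 had 1.11, 1.22 and 1.32 on chromosome 2, where their flanks had 1.32, 1.46 and 1.52. No position in the arrays held more than 4 reads of H2A.B or of 5mC replicate 1, while 5mC replicate 3 reached 85 at a single position on chromosome 9. IgG ChIP had 1.20, 1.20 and 1.28 reads per distinct position on chromosomes 2, 9 and 7, and reached 20 at a position on chromosome 7. On chromosome 2 the plus strand held 55.2% of the distinct H2A.B reads (54.2 to 56.3) and 61.9% of those of 5mC replicate 1 (59.1 to 64.6). IgG ChIP had 40.3% there (36.7 to 44.0) and 5mC replicates 2 and 3 had 42.5% and 41.4%. In this array the strand shares thus divided by flow cell, while on chromosome 9 IgG MeDIP, on 44 reads, had 52.3% (36.7 to 67.5). The share of 1 kb windows with no H2A.B read was 23.7%, 19.9% and 14.1% in the arrays of chromosomes 2, 9 and 7 and 10.7%, 7.45% and 8.09% in their flanks. Olfactory receptor genes have near-identical copies, and the handling of reads that match several places is not given here.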

How the data were processed

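Aligned reads of 6 libraries (1 H2A.B ChIP, 1 IgG ChIP, 3 5mC MeDIP, 1 IgG MeDIP) were deposited by the authors as lists of positions. A score column, deposited by the authors, holds a constant and entered no step. The submitters' processing notes name Bowtie, FastQC and mm9. Alignment settings: not given in the sources used here. ChIP libraries had 20 PCR cycles and MeDIP libraries 15, per the labels' protocols. For both IgG libraries a description field names the H2A.B antibody, and the antibody field and title were followed.

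Malformed lines (1 of H2A.B, 8 of 5mC replicate 1), the 201263 IgG MeDIP reads found in the replicate 2 list and 2691 reads of it with a blank strand were left out. Distinct reads (chromosome, 5′ position, strand) were counted in 10 kb windows. Windows with no read in any library, or above 10 times the H2A.B median of 27 reads, were left out. In wider windows those under 25% of the median mean CPM, or above 10 times a library's median, were left out. The filter at 25%, which includes the IgG libraries in the mean, was also applied to 10 kb windows in the rule of size. Intervals were Clopper-Pearson, or exact conditional for ratios of ratios. limma 3.58.1 (R 4.3.3) used log2 CPM with 0.5 reads added, a trend, and 5mC libraries thinned to IgG MeDIP, and it assumed that the lone IgG library varies like the 5mC libraries. All simulated data had counting noise only, with no other variation between libraries. Tested on such data (2560 windows), this fit found 83% of 100 windows raised 2-fold, with 4 false calls, and 0% of 100 lowered 0.5-fold. The voom method recovered 100% of the raised windows, with 126 false calls, and 88% of the lowered ones, with 10 false calls. The rule of size recovered 80% of 100 windows raised 2-fold and 69% of 100 lowered 0.5-fold, with 394 and 325 false calls of 25626. Counts were made with Python 3.11.15, NumPy 2.4.6, pandas 2.3.3 and SciPy 1.17.1.

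The regions, gene lists and tests were chosen with earlier results of these data known. Named windows were, per array, the 2 highest and 2 lowest 10 kb windows by mean CPM, the 3 extreme 100 kb ratios in each direction, the 2 maxima with the most H2A.B reads, and windows called by limma.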

Additional observations from a re-analysis of the deposited data

How the results depend on the processing

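All 18 array-to-flank levels were below 1 under each of the 8 alternatives except 1 value at 1.00. Of the 144 alternative values, 128 stayed within the counting interval, or for 5mC within 1 SD, of the reported one. Some of these values could not move, so the count overstates stability. The 10 kb medians of IgG MeDIP are 0, so its reported ratios of 0.416, 0.444 and 0.661 were kept under that alternative. On chromosome 7 the changes of the upper filter altered no value. With the lane mate 5mC replicate 1 in place of IgG ChIP as denominator, H2A.B stood at 1.23, 1.05 and 1.1 on chromosomes 2, 9 and 7. The chromosome 9 interval, 0.968 to 1.15, held 1. That library is not a background control and was itself low in the arrays. Relative to IgG ChIP with medians of 10 kb windows, H2A.B was at 1.13, 1.14 and 0.657. There the IgG ChIP median is a whole number of 1 or 2 reads. With medians of 100 kb windows, chosen after seeing the data, it was 0.824 on chromosome 2 and 0.682 on chromosome 7. Without the upper filter the chromosome 9 value was 0.806, because the read pile at 35110001 to 35120000 then counts in the flank.

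5mC relative to IgG MeDIP moved to 2.34 on chromosome 9 for the same reason, to 0.972 there with same-lane denominators, and to 1.89 on chromosome 2 with medians of 100 kb windows. Leaving out 1 replicate each gave 1.18 to 1.62 on chromosome 2, 1.16 to 1.42 on chromosome 9 and 0.931 to 1.14 on chromosome 7. Mirrored array windows numbered 4 with a ratio of at least 2, 21 with ratios divided by the chromosome median and 37 in 10 kb windows. With at least 20 reads and 6 times the surroundings 1 maximum was left, on chromosome 9. limma called 0 array windows in all settings. Over the genome it called 5 windows higher, but 0 with voom, 0 in 100 kb windows, 0 without any 1 replicate, 3 without the filter (with 1 lower) and 0 to 4 over 10 other thinnings. The cause of these moves was not tested except where given. No paired analysis was possible because only the 5mC group has replicate numbers. IgG MeDIP, with 44 to 74 reads per array, limits every 5mC ratio.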
